A study of Homo sapiens with 6 samples.

Results

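The human metallothionein genes and their zinc response were examined as 10 genes, MT1A, MT1E, MT1F, MT1G, MT1H, MT1M, MT1X, MT2A, MTF1 and SLC30A1, chosen by symbol from the 58884 genes of the deposited table, in which each of the 10 was found. RNA-seq had been run on KYSE70, an established and poorly differentiated human line of esophageal squamous cell carcinoma (ESCC) that carries mutant NRF2, the transcription factor encoded by NFE2L2, and on NRF2null-KYSE70. The latter grew from 1 KYSE70 cell in which CRISPR-Cas9 had cut an early exon of NFE2L2. Both lines were grown in RPMI1640 with serum, were untreated, and had 3 libraries each, so 6 libraries in 2 groups were compared. Any difference below is therefore between 1 clone and its parental line. In the clone the authors still detected NFE2L2 transcript variants that encode shorter isoforms, and a faint, smaller NRF2 band. Whether the libraries came from separate cultures is not given, so p-values measure the spread between these libraries only, which may be technical.

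Metallothioneins are small, cysteine-rich proteins that bind zinc and copper in the cell and take up toxic metals such as cadmium. In humans the MT1 and MT2A genes lie side by side on chromosome 16. MTF1 is the zinc-sensing transcription factor that binds metal response elements (MREs) in their promoters and in that of SLC30A1, which encodes a zinc exporter of the plasma membrane (ZNT1). NRF2, with a small MAF partner, binds another sequence, the antioxidant response element (ARE), and metallothionein genes are also known to respond to oxidative stress, so the question was how far their RNA differed once NFE2L2 had been edited in KYSE70.

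Promoter sequences are shown first, because MREs and AREs are defined by their letters. RefSeq promoters (GRCh38.p14) were at hand for 5 of the 10 genes, namely MT1H, MT1X, MT2A, MTF1 and SLC30A1, and not for MT1A, MT1E, MT1F, MT1G and MT1M. The 250 bases before each start were searched on both strands for the MRE core, spelled TGCACNC or TGCGCNC, and for the ARE core, spelled TGACNNNGC, with N for any base. These 5 sequences were the same as the hg38 genome at their positions. Capitals mark the matches, which were read on either strand and did not overlap each other. The sequences below run 5′ to 3′ toward the gene and are from MT2A (chr16:56608334-56608583, plus strand), MT1X (chr16:56682220-56682469, plus strand), MT1H (chr16:56669564-56669813, plus strand) and SLC30A1 (chr1:211579162-211579411, minus strand).
MT2A: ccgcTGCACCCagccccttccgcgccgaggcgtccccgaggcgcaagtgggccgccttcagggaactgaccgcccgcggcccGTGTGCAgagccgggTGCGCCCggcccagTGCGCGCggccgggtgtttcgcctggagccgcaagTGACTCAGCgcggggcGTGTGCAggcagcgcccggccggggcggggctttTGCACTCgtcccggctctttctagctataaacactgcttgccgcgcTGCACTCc
MT1X: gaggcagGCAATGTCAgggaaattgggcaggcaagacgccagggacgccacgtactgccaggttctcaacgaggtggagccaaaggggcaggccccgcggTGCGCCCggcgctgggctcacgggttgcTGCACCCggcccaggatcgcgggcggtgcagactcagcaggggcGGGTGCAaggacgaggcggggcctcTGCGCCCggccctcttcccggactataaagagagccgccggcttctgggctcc
MT1H: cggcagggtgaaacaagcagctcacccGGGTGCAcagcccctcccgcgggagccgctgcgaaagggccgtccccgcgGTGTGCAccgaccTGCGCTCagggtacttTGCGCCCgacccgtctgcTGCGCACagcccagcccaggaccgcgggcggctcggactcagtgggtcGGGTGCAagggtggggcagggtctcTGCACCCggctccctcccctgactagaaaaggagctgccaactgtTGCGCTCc
SLC30A1: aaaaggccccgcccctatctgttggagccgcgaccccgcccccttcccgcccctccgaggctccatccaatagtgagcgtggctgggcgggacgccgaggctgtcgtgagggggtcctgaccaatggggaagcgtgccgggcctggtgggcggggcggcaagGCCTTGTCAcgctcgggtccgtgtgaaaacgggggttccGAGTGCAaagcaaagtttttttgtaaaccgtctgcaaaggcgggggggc

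The MRE core occurred 8 times before MT1H, 7 times before MT2A, 4 times before MT1X, once before SLC30A1 and not before MTF1. Among 34788 RefSeq promoters of the same length, 24.8% held at least 1 match, 0.368% held at least 4 and 0.0517% held at least 6. An ARE core was found before MT2A as TGACTCAGC, from 104 to 96 bases before the start, before MT1X as TGACATTGC on the other strand, from 243 to 235 bases before the start, and before SLC30A1 as TGACAAGGC on the other strand, from 88 to 80 bases before the start. No ARE core stood in the windows of MT1H and MTF1, and 10.9% of all promoters held at least 1. A match is a description of the letters and not a site of binding.

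The libraries held 52072801 to 63975313 assigned reads, and the third library of each line was the shallowest. NFE2L2, the targeted gene, had a level of 9928 ± 102 (normalized counts, SD, n = 3) in KYSE70 and 6093 ± 318.8 in the clone (log2 fold change -0.71, limma adjusted p = 9.37e-08). As 28.3% of all tested genes were lower at an adjusted p under 0.05, this alone does not settle the labels. Of the annotated exonic bases of NFE2L2, 38.4% overlap other genes, 13.6% on the same strand. Normalized counts are read counts scaled by the size factor of their library. The 10 markers listed for squamous cells were all detected, and EPCAM and CDH1 among them are epithelial genes in general. The summed level of the 10 was 351202 to 364366 normalized counts in KYSE70 and 282462 to 302598 in NRF2null-KYSE70. KRT5 was the most abundant of them, with means of 209917 and 124640. In the clone 7 of the 10 markers were higher and 3 (KRT5, TP63 and DSG3) lower at an adjusted p under 0.05. Among all tested genes, 29.3% were higher and 28.3% lower. Of the markers of other cell types, 2 of 5 fibroblast, 1 of 3 leukocyte and 2 of 3 endothelial genes were at the floor of 3 reads or fewer in all 6 libraries, COL1A2 and DCN having no read. The summed fibroblast markers were 1384 to 1618 in KYSE70 and 470.7 to 622 in NRF2null-KYSE70, the leukocyte markers 0 to 6.33 and 42.2 to 58.2, the endothelial markers 133 to 149 and 274.6 to 450.3, and the 2 neuroendocrine markers, both detected, 117 to 160.1 and 83.2 to 124. In the clone the leukocyte sum was mostly PTPRC, with means of 0.351 in KYSE70 and 43.6 in the clone. CD14 had means of 2.97 and 4.75, and CD3E had 1 read. The endothelial sum was nearly all VWF, with means of 142 and 353, and PECAM1 and CDH5 had 1 read each. The part of these marker genes in the results below was not tested. In bulk RNA, fewer cells that express a gene and less of its RNA per cell cannot be told apart.

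Of the 8 metallothionein genes, 3 were expressed. MT2A was the most abundant, followed by MT1X and MT1F, and the other 5 had between 0 and 7 reads in the 6 libraries together. Compared per length of the canonical transcript, MT2A (401 nt) stood at a level of 11136 ± 1098 normalized counts per kb in KYSE70 and 7875 ± 1091 in the clone (SD, n = 3). MT1X (404 nt) stood at 1775 ± 178 and 1924 ± 306.7 per kb, and MT1F (425 nt) at 217 ± 57.7 and 206 ± 72.7 per kb. On the same scale SLC30A1 (5893 nt) was at 220 ± 12.1 and 284 ± 21.1, and MTF1 (7937 nt) at 133 ± 4.97 and 163 ± 13.4. The order of the levels was thus MT2A, MT1X, SLC30A1, MT1F and MTF1 in both lines. In KYSE70 SLC30A1 and MT1F, neighbours in that order, did not differ beyond their spread, and in NRF2null-KYSE70 the range of MT1F met those of both SLC30A1 and MTF1.

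**Figure D1:**
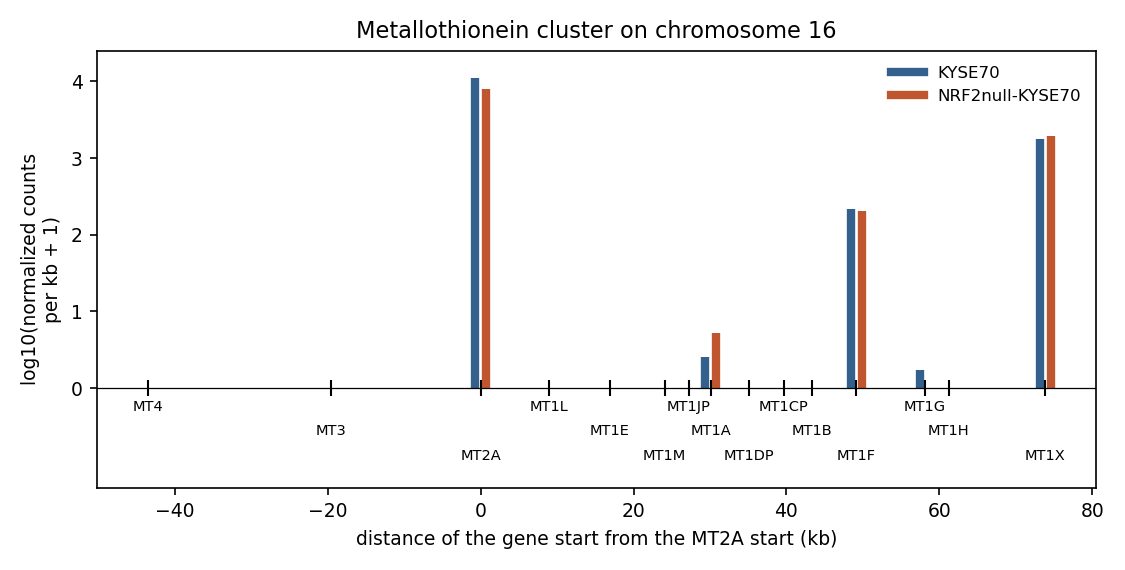
Levels along the metallothionein cluster. The horizontal axis is the distance of each gene start from the MT2A start in kb (lowest coordinate of each gene), and the bars give log10(mean normalized counts per kb + 1) over 3 libraries of KYSE70 (blue) and NRF2null-KYSE70 (orange). MT2A, MT1X and MT1F carry nearly all of the signal, the bars of MT1A and MT1G stand for 7 reads and 1 read in all, and the genes with a tick and no bar had no read.

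MT1E, MT1H and MT1M had no read in any library, although the promoter of MT1H held more MRE cores than that of MT2A. A count of 0 allows a level of up to 3 reads, which is 0.0469 to 0.0576 per 1000000 assigned reads in these libraries, for counting error only. MT1G had 1 read in all, in a KYSE70 library. MT1A had 2 reads in the KYSE70 libraries and 5 in the NRF2null-KYSE70 libraries, at or under the floor in every library, so no fold change is given. These 5 genes did not enter the test, which needed a mean of at least 10 normalized counts over the 6 libraries, and the members described by a test are the other 5. Of 14 other metallothionein genes and pseudogenes, 12 were in the table, and 3 of these had reads, namely MT1XP1 with 33, MT2P1 with 27 and MT1P1 with 5. All 5 MT1P1 reads were in the first NRF2null-KYSE70 library. The sum of these 12 (normalized counts, SD, n = 3) was 7.84 ± 1.76 in KYSE70 and 13.7 ± 6.07 in the clone. The brain metallothionein MT3 and the squamous epithelial MT4 had no read.

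The metallothionein genes share sequence, and how the authors' counting treated reads with several alignments was not stated. Of all windows of 50 bases in the canonical transcript, 11.1% of those of MT2A, 20.3% of those of MT1X and 6.12% of those of MT1F were found elsewhere in hg38 or in another metallothionein transcript. The shares were 20.1% for MT1E, 21.3% for MT1G, 20.4% for MT1H, 18.6% for MT1M and 5.76% for MT1A, so most windows of the genes without reads were their own. In SLC30A1 the share was 0%, and in MTF1 it was 1.40%. In MT1X, 18.6% of the exonic bases also lie in another annotated gene on the same strand.

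The lines were compared with limma on log2(normalized count + 1) over 15994 genes, with Benjamini-Hochberg adjustment over all of them. MT2A was lower, and SLC30A1 and MTF1 were higher in the NRF2null-KYSE70 clone, while MT1X and MT1F did not pass the test. Among all tested genes 28.3% were lower and 29.3% higher at an adjusted p under 0.05, so that 57.6% passed, and 3 of 5 members (60.0%) is a share near that background and no result about the group. None of the 5 also reached a log2 fold change of 1 or more in size, which 14.7% of all tested genes did. The 3 libraries of one line lay entirely above or below those of the other for the same 3 of the 5 members, as for 63.4% of all tested genes. The median log2 fold change was 0.11 over the 5 members and -0.007 over all tested genes. The sizes were ordinary too, since 37.3% of tested genes had a larger absolute log2 fold change than MT2A, 49.6% a larger one than SLC30A1 and 58.1% a larger one than MTF1.

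MT2A (ENSG00000125148, chr16:56608584-56609497 in hg38, plus strand), the main metallothionein of most human tissues, had normalized counts of 4153, 4274 and 4969 in the KYSE70 libraries and of 2713, 3172 and 3588 in the clone. Every NRF2null-KYSE70 library was below every KYSE70 library. The means were 4465 ± 440.1 and 3158 ± 437.6 (SD, n = 3), so the clone kept 70.7% of the level in KYSE70. The log2 fold change was -0.50 (SE 0.094, 95% interval -0.71 to -0.30, limma adjusted p = 4.93e-04). On recovered reads DESeq2 gave an adjusted p of 8.80e-07 and edgeR one of 3.63e-04.

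MT1X (ENSG00000187193, chr16:56682470-56684196, plus strand), an MT1 isoform of wide expression, had normalized counts of 638.5, 733.8 and 779 in KYSE70 and of 676.5, 739 and 915.6 in the clone. The lines overlapped, with means of 717 ± 71.8 and 777 ± 124 (SD, n = 3). Its log2 fold change of 0.11 (SE 0.117, 95% interval -0.15 to 0.36, limma adjusted p = 0.45) was within the spread between libraries. The interval does not hold the value of MT2A.

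MT1F (ENSG00000198417, chr16:56657731-56660698, plus strand), a further MT1 isoform, had normalized counts of 74.7, 81.6 and 120.2 in KYSE70 and of 53.8, 95.1 and 114 in the clone. The lines overlapped. The means were 92.2 ± 24.5 and 87.7 ± 30.9 (SD, n = 3), and the log2 fold change was -0.11 (SE 0.293, 95% interval -0.75 to 0.53, limma adjusted p = 0.777). With 538 reads in the 6 libraries and this spread, a change as large as that of MT2A in either direction was inside the interval.

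**Figure D2:**
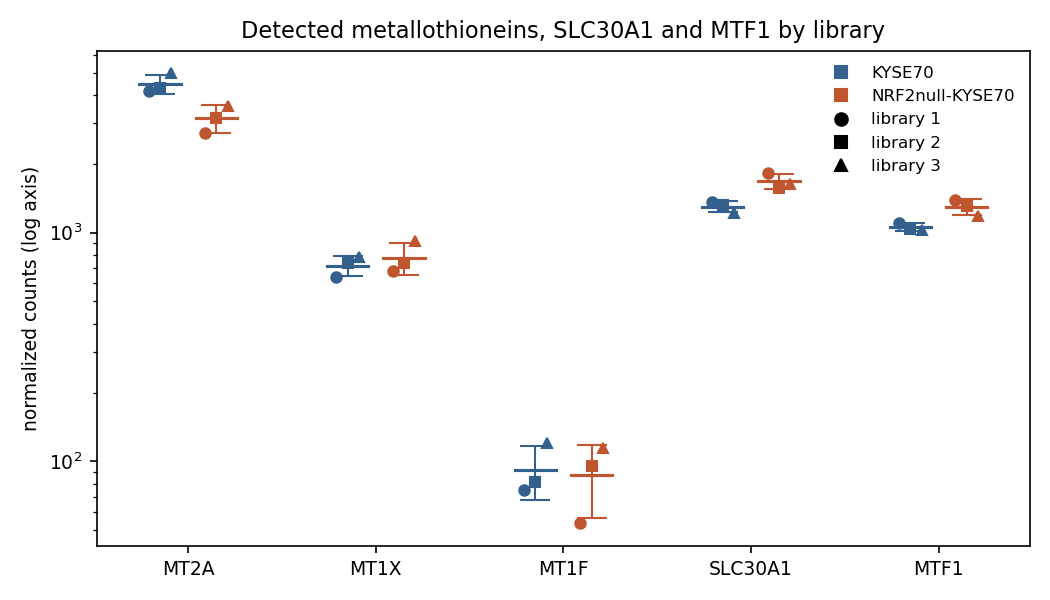
Expression of the 5 detected members by library. Points are normalized counts of single libraries (log axis; blue, KYSE70; orange, NRF2null-KYSE70; circles, squares and triangles, libraries 1, 2 and 3 in the order of the table), long bars are means and whiskers SD (n = 3). The lines are apart for MT2A, SLC30A1 and MTF1 and overlap for MT1X and MT1F, and the metallothioneins are lowest in library 1 and highest in library 3 of each line.

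Because MT2A made up most of the total, the summed level of the 8 metallothionein genes was also lower in the clone. In normalized counts, the sum was 4867, 5091 and 5868 in KYSE70 and 3446, 4010 and 4618 in the clone, with means of 5276 ± 525.3 and 4024 ± 586 (SD, n = 3), or 76.3% of KYSE70. Each NRF2null-KYSE70 library lay below each KYSE70 library. As a share of all assigned reads the sum was 92.9 ± 9.17 per 1000000 reads in KYSE70 and 67.3 ± 10.3 in the clone.

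The makeup of the sum differed between the lines. MT2A gave 84.6 ± 0.690% of it in KYSE70 and 78.5 ± 0.733% in the clone (SD, n = 3), MT1X gave 13.6 ± 0.705% and 19.3 ± 0.752%, and MT1F gave 1.73 ± 0.279% and 2.13 ± 0.500%. The ratio of MT2A to MT1X, whose transcripts are of nearly the same length, was 6.50, 5.82 and 6.38 in KYSE70 and 4.01, 4.29 and 3.92 in NRF2null-KYSE70. It had means of 6.23 ± 0.361 and 4.07 ± 0.194 (SD, n = 3), a difference of -0.61 on the log2 scale, and the lines did not overlap. An exact two-sided permutation test gave p = 0.1, the smallest p that 3 libraries against 3 allow, and an adjusted p of 0.2 over the 4 ratios computed, so this design could not pass the threshold. The ratio of MT2A to SLC30A1 was 3.46 ± 0.544 in KYSE70 and 1.90 ± 0.361 in NRF2null-KYSE70, again without overlap (log2 difference -0.87, exact p = 0.1, adjusted p = 0.2). MT2A was lower and SLC30A1 higher, each without overlap, so this outcome was fixed and adds nothing to the values of the single genes. Their transcripts also differ in length (401 and 5893 nt), and the trend with length described below was not removed from this ratio. The ratio of MT2A to MT1F differed by -0.40 on the log2 scale (exact p = 0.2, adjusted p = 0.267) and that of MT1X to MT1F by 0.22 (exact p = 0.6, adjusted p = 0.6), both with overlap.

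**Figure D3:**
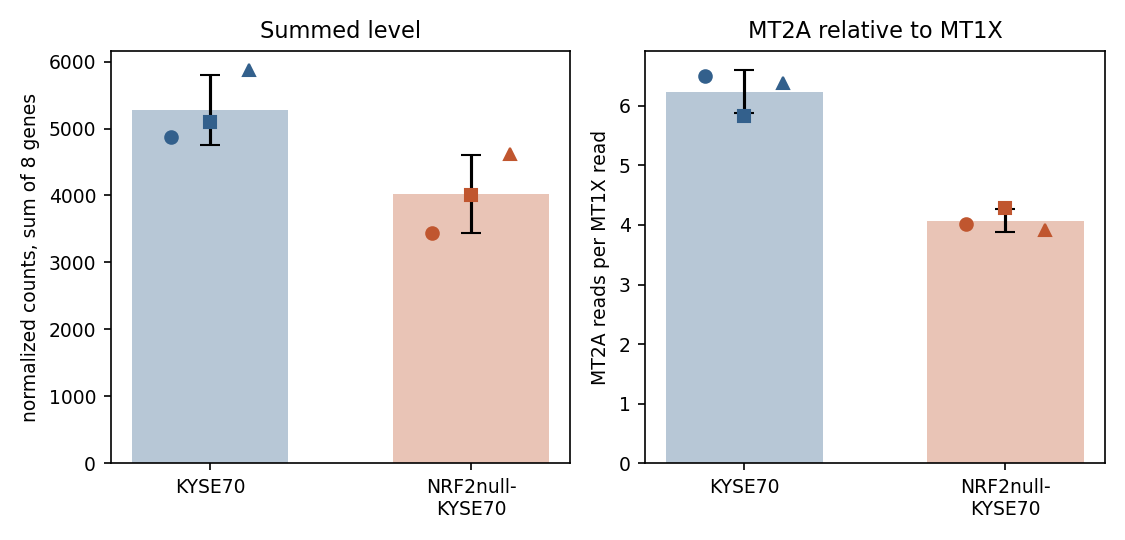
Summed metallothionein level and ratio of MT2A to MT1X. Bars are means, whiskers SD (n = 3) and points single libraries, with normalized counts summed over 8 genes on the left and the ratio of normalized counts on the right. The sum is lower and the ratio smaller in all 3 NRF2null-KYSE70 libraries than in any KYSE70 library, and the libraries of one line differ less in the ratio than in the sum.

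SLC30A1 (ENSG00000170385, chr1:211571568-211579161, minus strand), which exports zinc across the plasma membrane, had normalized counts of 1354, 1323 and 1218 in KYSE70 and of 1813, 1573 and 1637 in the clone. The clone was above the parental line in every library, with means of 1299 ± 71.6 and 1674 ± 124 (SD, n = 3), 129% of that in KYSE70. This was a log2 fold change of 0.37 (SE 0.074, 95% interval 0.20 to 0.53, limma adjusted p = 0.001). SLC30A1 thus differed in the direction opposite to MT2A.

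MTF1 (ENSG00000188786, chr1:37809574-37859592, minus strand), the zinc sensor, had normalized counts of 1104, 1040 and 1031 in KYSE70 and of 1393, 1312 and 1182 in the clone. Again the lines did not overlap. The means were 1058 ± 39.4 and 1295 ± 107 (SD, n = 3), or 122%, and the log2 fold change was 0.29 (SE 0.078, 95% interval 0.12 to 0.46, limma adjusted p = 0.00677). Its RNA level says nothing of how much MTF1 was bound to zinc or to DNA.

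Transcript length moved with these results and was measured beside them. The canonical transcripts of the expressed metallothioneins are shorter than 600 nt. Among 164 tested protein-coding genes of that length the median log2 fold change was -0.19, among the 862 genes from 600 to 1200 nt it was -0.16, and among the 3851 genes of 4800 nt or more, which include SLC30A1 and MTF1, it was 0.09. Single libraries followed the same division. MT2A deviated from its line mean by -0.10, -0.06 and 0.16 (log2) in KYSE70 and by -0.21, 0.02 and 0.19 in NRF2null-KYSE70, and the median short gene by -0.09, -0.03 and 0.10 and by -0.16, 0.07 and 0.09. MTF1 and SLC30A1 were instead highest in library 1 of each line, with deviations of 0.06 each in KYSE70 and of 0.11 and 0.12 in NRF2null-KYSE70.

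In a fit chosen after seeing these values, the trend of each library with transcript length was removed before the limma test. The log2 fold change of MT2A became -0.35 (SE 0.068, limma adjusted p = 3.34e-04), that of SLC30A1 0.30 (SE 0.063, adjusted p = 6.84e-04) and that of MTF1 0.19 (SE 0.068, adjusted p = 0.0224), so these 3 kept their direction and passed. MT1X stood at 0.26 and then passed as well (SE 0.101, limma adjusted p = 0.0351), while MT1F stood at 0.04 (adjusted p = 0.90). With the trend removed, 4 of the 5 members therefore passed, MT2A lower and the other 3 higher. The residual SD was 0.173 before and 0.122 after this step for MT2A, and 0.0938 and 0.0564 for SLC30A1. MT2A and MT1X, with transcripts of 401 and 404 nt, were shifted by nearly the same amount. Whether the trend with length arose in the cells or in the libraries was not tested.

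**Figure D4:**
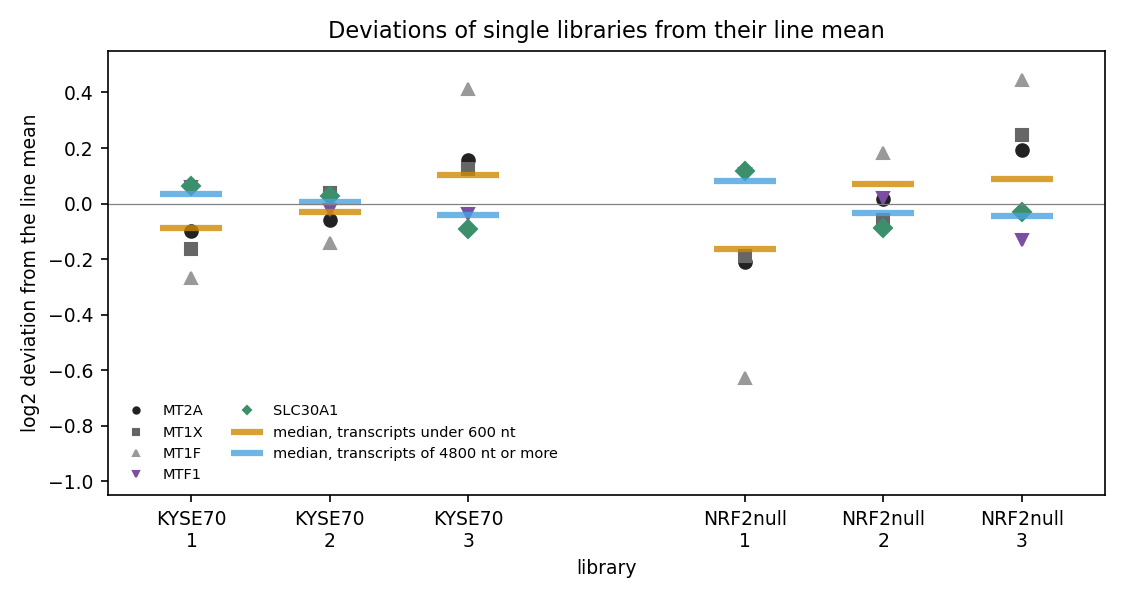
Deviations of single libraries from the mean of their line, in log2 units, for the 5 detected members (points) and for the median tested protein-coding gene with a canonical transcript under 600 nt (164 genes) or of 4800 nt or more (3851 genes, both as bars). Short-transcript genes and MT2A are below 0 in library 1 and above 0 in library 3 of each line, and MTF1 and SLC30A1 lie on the other side in those libraries.

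Over the 6 libraries, the tested genes whose deviations from the line mean were most like those of MT2A were COPRS, a histone-binding partner of a protein methyltransferase (Pearson r = 0.999), POLR3F, a subunit of RNA polymerase III (r = 0.998), and CPNE5, a copine (r = 0.998), which had a mean of only 11.9 normalized counts. The r with MT1F was 0.983, with MT1X 0.914, with SLC30A1 -0.830 and with MTF1 -0.898. Of all tested genes, 0.3% had an r at least as high as that of MT1F and 3.34% one at least as high as that of MT1X. The share was 88.9% for SLC30A1 and 94.1% for MTF1. These values describe 6 libraries that share their depth and length trend, and no test was made of them.

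Neighbouring genes on the chromosome were compared as well. Within 5 Mb of MT2A, 66 other genes were tested, 19 of them lower and 22 higher, and their median log2 fold change was 0.003, while the median was 0.11 over the 25 tested within 1 Mb. MT1F and MT1X were among these neighbours, and the median within 1 Mb was the value of MT1X itself. MT2A was 0.51 below the median of its neighbours within 5 Mb on the log2 scale. The median was 0.08 over 108 genes around MTF1 and 0.04 over 52 around SLC30A1, which left 0.21 for MTF1 and 0.32 for SLC30A1.

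The zinc transporters were examined as 24 genes, 10 of the exporter family SLC30, with SLC30A1 among them, and 14 of the importer family SLC39. The test covered 18 of them. Of these, 4 were lower and 5 higher (50.0% against 57.6% of all tested genes), at a median of 0.05 on the log2 scale, and the lines did not overlap for 11 of the 18, near the 63.4% of all tested genes. Among 7 tested exporters, SLC30A1 included, 2 were lower and 2 higher, and among 11 tested importers 2 were lower and 3 higher. SLC30A2, SLC30A8 and SLC39A12 had no read, SLC30A10 had 5 reads and SLC39A2 9, and SLC39A5 was below the filter with 34.

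Of all tested genes 14.7% passed with a log2 fold change of 1 or more in size, as did 1 of 18 tested zinc transporters. This was the importer SLC39A8 (ZIP8), which also carries manganese and cadmium. Its normalized counts were 166, 133 and 139 in KYSE70 and 0, 1.96 and 2.28 in the clone. Its 466 reads in KYSE70 against 4 in NRF2null-KYSE70 gave a level 106-fold higher in KYSE70 per unit of depth, with an exact 95% counting interval of 41.0 to 389.7, and the limma adjusted p was 5.35e-07. All 3 libraries of the clone were at the floor of 3 reads or fewer, and the fitted log2 fold change of -6.10 ran from -4.57 with a pseudocount of 5 to -7.53 with one of 0.1. SLC39A10 (ZIP10), a plasma membrane importer, stood at 2704 ± 78.3 normalized counts in the parental line and 5326 ± 89.0 in the clone (SD, n = 3), a log2 fold change of 0.98 (limma adjusted p = 5.24e-09). SLC39A14 (ZIP14), an importer of zinc, iron and manganese and the most abundant zinc transporter, went from 13522 ± 498 to 18751 ± 666 (log2 fold change 0.47, adjusted p = 2.69e-06), and SLC39A9 (ZIP9) from 6754 ± 269.9 to 9133 ± 34.3 (log2 fold change 0.44, adjusted p = 4.59e-06).

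SLC39A1 (ZIP1) had 64.1 ± 11.3 and 36.6 ± 12.3 normalized counts, with a log2 fold change of -0.82 (limma adjusted p = 0.0365). Of its exonic bases 69.1% overlap other genes, and its call was lost without the filter (adjusted p = 0.0914), with edgeR (0.0531) and when any of 4 of the 6 libraries was left out. Without the third NRF2null-KYSE70 library it stood at -1.07 (adjusted p = 0.0138), which made 2 zinc transporters past both thresholds. The other calls, named after their values were seen, were SLC30A9 at a log2 fold change of 0.24, SLC30A3 at -0.28 and SLC30A5 at -0.14 (adjusted p = 6.25e-04, 0.0159 and 0.0473). Without the first KYSE70 library, 1 zinc transporter was lower and 5 were higher, and without the second or the third NRF2null-KYSE70 library 2 were lower and 5 higher.

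Copper is the other metal that metallothioneins bind, and 15 genes of copper handling were examined, of which 12 were tested. At an adjusted p under 0.05, 4 were lower and 2 higher (50.0% against 57.6% of all tested genes), none by 1 or more on the log2 scale (14.7% of all tested genes), and the median was -0.08. ATP7A, the copper-exporting ATPase, had 1379 ± 154 and 903 ± 33.1 normalized counts (SD, n = 3; log2 fold change -0.61, limma adjusted p = 5.87e-05). SOD1, the copper- and zinc-dependent superoxide dismutase and the most abundant gene of the list, had 25905 ± 1257 and 21379 ± 1504 (log2 fold change -0.28, adjusted p = 0.00113), and the copper importer SLC31A1 (CTR1) 7086 ± 480.1 and 5999 ± 143 (-0.24, adjusted p = 0.00245). The fourth was STEAP3, a metalloreductase, at -0.21 (adjusted p = 0.0467), named after its value was seen. With the length trend removed, SOD1 stood at -0.15 (limma adjusted p = 0.00388), ATP7A at -0.71 and SLC31A1 at -0.30.

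The copper genes that were higher were SLC31A2 (CTR2), with 1291 ± 86.5 and 2020 ± 161 normalized counts (SD, n = 3; log2 fold change 0.64, limma adjusted p = 1.21e-05), and COX17, the chaperone that brings copper to cytochrome c oxidase, with 1406 ± 82.1 and 1860 ± 103 (0.40, adjusted p = 2.96e-04). In SLC31A2, 63.97% of exonic bases overlap FKBP15 on the other strand, and whether counting used strand was not stated. After the median of the genes within 5 Mb was subtracted, COX17 stood at 0.04 and SLC31A1 at 0.11, whereas ATP7A stood at -0.40 and SLC31A2 at 1.00. ATOX1 and CCS, the copper chaperones of the secretory pathway and of SOD1, had log2 fold changes of -0.0005 and -0.013, did not pass and were named after their values were seen.

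**Figure D5:**
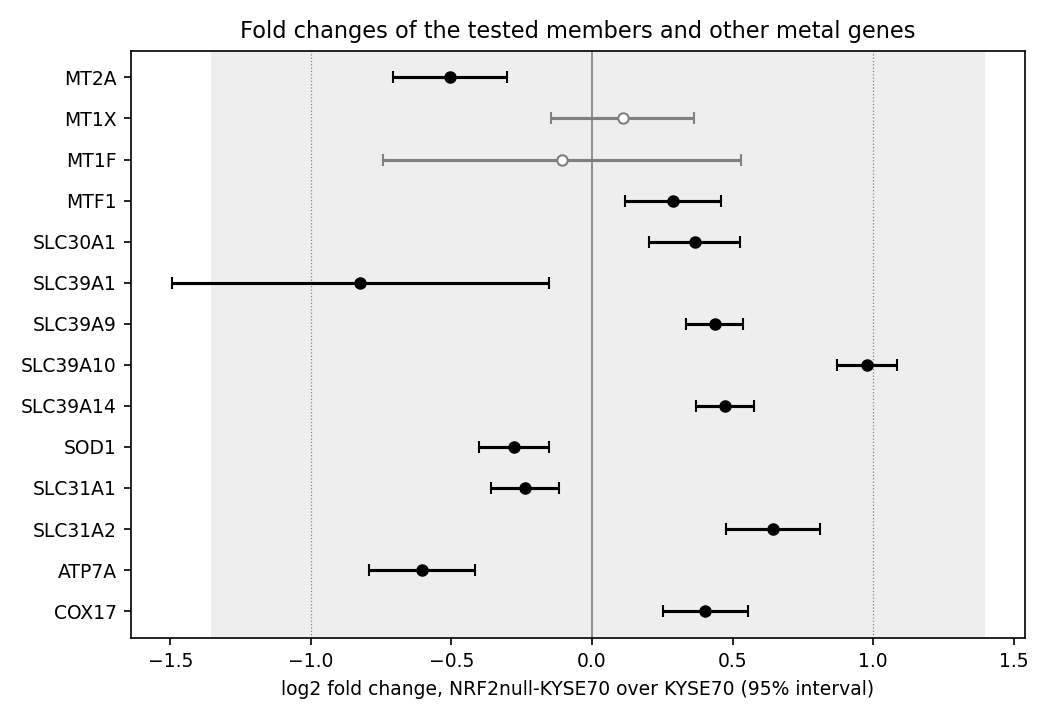
Log2 fold changes of the tested members and of the named zinc and copper genes, NRF2null-KYSE70 over KYSE70, with 95% intervals from limma. Filled points passed an adjusted p of 0.05, dotted lines mark an absolute log2 fold change of 1, and the grey band holds the 5th to 95th percentile of all tested genes, -1.35 to 1.39. SLC39A8, at the floor in the clone, is not drawn. MT2A lies left of 0, and SLC30A1 and MTF1 lie right of it.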

How the data were processed

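RNA of untreated cells (RNeasy; NEBNext Ultra libraries, Illumina) was read in 3 libraries per line. The authors trimmed reads with cutadapt (1.12), aligned them with STAR (2.6.90c) to hg38 and counted them with featureCounts (1.5.1). The deposited values are a signal in normalized counts, that is, counts per gene divided by the authors' DESeq2 size factors. Handling of strand and of reads with several alignments is not given in the sources used here. Columns named the line but gave no replicate number, and libraries are numbered here by column order.

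Whole reads were recovered from these values (100% whole within 0.01 reads) and gave the depth. limma (3.58.1) was fitted as lmFit and eBayes with a trend on log2(normalized count + 1) for genes with a mean of at least 10, and tested on simulated data, with DESeq2 (1.42.0) and edgeR (4.0.16) on recovered reads as alternatives. Also tried were filters at no minimum or a mean of 50, pseudocounts of 0.1 or 5, TMM and total scaling, no trend, robust eBayes and leaving out each library. Removal of the length trend (a loess of each library's deviations on log2 canonical transcript length) was chosen after seeing the data. Positions, transcripts and lengths were taken from GENCODE v44 (hg38), which held 58472 of the 58884 identifiers. The limma intervals cover the spread between libraries. The counting interval of SLC39A8 and the floors cover counting error only.

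The members, lists and tests were chosen with earlier results of these data known. Named genes were the 10 members, other metallothionein rows with reads, NFE2L2, the zinc and copper genes past both thresholds and otherwise at most the 4 most changed and 2 most abundant of each list, and the 3 genes most like MT2A across libraries. A leukocyte marker of the lists is not reported here.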

Additional observations from a re-analysis of the deposited data

How the results depend on the processing

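No paired analysis was possible because the columns carried no replicate numbers. MT2A kept its direction and passed in all 17 alternative fits, at log2 fold changes from -0.60 to -0.35 and adjusted p-values up to 0.0231. MTF1, from 0.19 to 0.35 (adjusted p up to 0.0303), and SLC30A1, from 0.29 to 0.41 (adjusted p up to 0.0123), did so too. Scaling to total reads shifted the median of all tested genes by -0.075. In the fits without 1 library, MT1F lay between -0.33 and 0.21, and it was above 0 without the third KYSE70 library (0.098), without the first NRF2null-KYSE70 library (0.21) and with the length trend removed (0.045). MT1X lay between -0.015 and 0.20 in those leave-one-out fits, with -0.015 without the third NRF2null-KYSE70 library, and only the removal of the length trend, of the fits run, made it pass. The number of members that passed was 3 in 16 of these alternatives and 4 with the length trend removed. It was 6 to 10 for zinc transporters and 5 to 8 for copper genes. Subtracting the median log2 fold change of tested genes within 5 Mb turned SLC31A1 to 0.11 and brought SLC39A14 to 1.02 and SLC39A9 to 0.30, with no test. The summed metallothionein level was 70.7% to 81.8% of KYSE70 when each library was left out, 72.4% with total scaling and 76.4% with all metallothionein rows. For MT1F, with 538 reads in all, low counts and the spread between libraries limit what could be detected.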
